A study of Mus musculus with 6 samples.

Results

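The cell division and DNA replication genes examined here are a list of 43 named genes, each matched by its symbol to a row of the deposited count table, which lists 57180 genes. All 43 were found, and all 43 passed the filter on low counts that left 17320 genes for testing. By role they comprise 5 G1 cyclins and kinases, 4 genes of S phase entry, 12 replication genes, 18 mitosis genes and 4 inhibitors. They were measured by RNA sequencing of inguinal white adipose tissue (iWAT), the fat depot under the skin of the groin, in 6 libraries described as biological triplicates. The 3 ADISSP libraries came from wild-type mice kept on a high-fat diet until obese and then given recombinant Adissp protein (rAdissp) at 68 nmol per kg every day for 33 days. The 3 Control libraries came from wild-type mice on the same diet. What the Control mice received, and the sex and age of the animals, are not stated in the labels. Each library holds RNA of a whole piece of tissue, so fewer cells of a type and less RNA per cell cannot be told apart.

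A dividing cell first raises its D cyclins (Ccnd1, Ccnd2 and Ccnd3), which bind Cdk4 or Cdk6 and release the E2F transcription factors from the retinoblastoma protein. E2F then drives the genes that license and copy DNA, and a later wave, controlled through CHR elements, which DREAM and FOXM1 complexes bind, and CCAAT boxes, which NF-Y binds, drives the genes of mitosis. Inhibitor proteins such as p21 (Cdkn1a), p27 (Cdkn1b), p57 (Cdkn1c) and p18 (Cdkn2c) hold the kinases back. Mature fat cells have left the cell cycle, and in fat tissue dividing cells are known mainly among progenitors, immune cells and vessel cells.

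The libraries held 10357930 to 15658428 counts, so that 1 count equalled 0.0549 to 0.11 CPM (counts scaled to a common library size with the TMM factors that edgeR estimates). Of the 17320 tested genes, 3197 (18.5%) were higher and 2861 (16.5%) lower in ADISSP by edgeR's quasi-likelihood test, with a Benjamini-Hochberg adjusted p under 0.05 over all tested genes. These are the calls meant by "rose" and "fell" in what follows. Markers of fat cells were abundant in every library (Adipoq, the fat cell hormone adiponectin, stood at 1200 to 1930 CPM), and Epcam, an epithelial marker, stood at 0.566 CPM or less. The Control libraries differed among themselves. The 11 B cell markers summed to 645 and 765 CPM in Control 1 and 2 and to 149 CPM in Control 3, against 7.28 to 14.2 CPM in ADISSP. The 10 T cell markers summed to 188 and 261 CPM in Control 1 and 2, to 64.9 CPM in Control 3 and to 26 to 28 CPM in ADISSP. The 8 skeletal muscle markers summed to 36.1 and 47.6 CPM in Control 1 and 2, to 9880 CPM in Control 3 and to 3680 to 4190 CPM in ADISSP. Results are therefore also given with Control 3 as the only control and with each library left out.

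The bases before the start of 6 of the genes are shown here because they carry the sequence elements by which replication and mitosis genes are usually told apart, and because they include genes that fell and genes that passed no test. They are RefSeq promoters of the mouse build GRCm38.p6, 250 bases ending at the base before the start, written 5′ to 3′ on the gene's strand. Capitals mark matches, on either strand, to an E2F element (TTTCCCGC, TTTGGCGC, TTTCGCGC or TTTGCCGC), to the CHR element (TTTGAA) or to a CCAAT box (CCAAT), and adjoining matches run together.
Mcm5, chr8:75109259-75109508, plus strand: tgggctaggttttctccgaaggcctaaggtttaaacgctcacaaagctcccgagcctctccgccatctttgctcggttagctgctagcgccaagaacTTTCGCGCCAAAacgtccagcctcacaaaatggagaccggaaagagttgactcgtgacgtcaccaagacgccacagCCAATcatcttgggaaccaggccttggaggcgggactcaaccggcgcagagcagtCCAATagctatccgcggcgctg
Mcm6, chr1:128359706-128359955, minus strand: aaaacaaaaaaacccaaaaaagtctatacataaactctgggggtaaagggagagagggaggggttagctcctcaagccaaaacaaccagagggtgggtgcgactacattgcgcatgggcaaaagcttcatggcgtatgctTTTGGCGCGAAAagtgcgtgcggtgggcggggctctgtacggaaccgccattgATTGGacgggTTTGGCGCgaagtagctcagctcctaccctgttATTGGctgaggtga
Mcm7, chr5:138171884-138172133, minus strand: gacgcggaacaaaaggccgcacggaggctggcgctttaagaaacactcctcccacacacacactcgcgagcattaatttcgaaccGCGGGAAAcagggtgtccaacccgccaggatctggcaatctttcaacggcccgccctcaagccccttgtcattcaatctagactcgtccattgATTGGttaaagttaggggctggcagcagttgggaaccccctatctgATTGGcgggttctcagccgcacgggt
Top2a, chr11:99024190-99024439, minus strand: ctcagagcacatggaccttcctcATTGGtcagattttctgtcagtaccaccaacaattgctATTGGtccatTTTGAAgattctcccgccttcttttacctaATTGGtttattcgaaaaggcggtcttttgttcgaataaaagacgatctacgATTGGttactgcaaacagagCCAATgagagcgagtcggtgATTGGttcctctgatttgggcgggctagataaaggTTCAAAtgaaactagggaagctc
Mki67, chr7:135716380-135716629, minus strand: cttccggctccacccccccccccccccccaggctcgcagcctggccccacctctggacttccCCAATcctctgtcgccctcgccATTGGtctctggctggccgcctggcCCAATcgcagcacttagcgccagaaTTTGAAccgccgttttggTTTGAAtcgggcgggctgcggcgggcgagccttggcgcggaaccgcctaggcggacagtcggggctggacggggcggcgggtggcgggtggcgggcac
Cdk1, chr10:69352913-69353162, minus strand: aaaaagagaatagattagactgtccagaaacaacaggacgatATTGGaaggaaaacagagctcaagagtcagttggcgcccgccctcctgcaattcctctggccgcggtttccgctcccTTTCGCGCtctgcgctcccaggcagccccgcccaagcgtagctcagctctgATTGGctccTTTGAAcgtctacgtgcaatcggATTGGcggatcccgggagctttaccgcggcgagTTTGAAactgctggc
Mcm5, Mcm6 and Mcm7 encode subunits of the same helicase, and each window printed here holds at least 1 E2F match. Mcm7 also has another window, not printed, which holds 0 E2F matches and 1 CCAAT match. Mcm5 and Mcm6 fell in ADISSP, whereas Mcm7 passed no test. Top2a, Mki67 and Cdk1 hold CHR and CCAAT matches, Cdk1 also an E2F match, and of these Top2a and Mki67 fell. Promoters were given for 34 of the 43 genes, in 38 windows, and a gene counts as matched if any of its windows holds a match. The shares below are of the window from 250 bases before to 50 bases after the start. An E2F match was present in 6 of 11 replication genes (54.5%), in 1 of 14 mitosis genes (7.14%) and in 2.6% of all 27025 genes with a promoter. A CHR match was present in 1 of 11 replication genes (9.09%), in 10 of 14 mitosis genes (71.4%) and in 20.2% of all genes. A CCAAT box was the commonest element, with 8 of 11 replication genes (72.7%), 13 of 14 mitosis genes (92.9%) and 41.1% of all genes. The E2F match of Mcm7 after its start overlaps a CCAAT match, which was the 1 overlap between different elements. Among genes that fell, 4 of the 9 with a promoter (44.4%) held an E2F match and 3 (33.3%) a CHR match, against 4 (16.7%) and 8 (33.3%) of the 24 that passed no test. When only bases before the start were read, E2F matches were in 2 of the 9 (22.2%) and 4 of the 24 (16.7%), CHR matches in 6 of the 14 mitosis genes (42.9%; all genes 18.3%), and E2F matches in 4 of the 11 replication genes (36.4%; all genes 2.16%). A match describes letters, not binding.

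**Figure D1:**
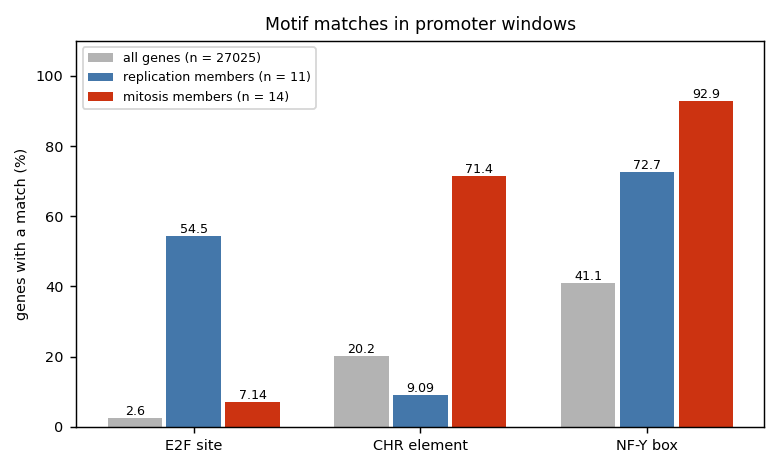
Share of genes, in percent, whose window from 250 bases before to 50 bases after the start holds an E2F, CHR or CCAAT match (the CCAAT box is labelled NF-Y box, after the factor that binds it), for all 27025 genes with a promoter, the 11 replication genes and the 14 mitosis genes. E2F matches stand at 54.5% of replication genes and CHR matches at 71.4% of mitosis genes, against 2.6% and 20.2% of all genes.

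Of the 43 genes, 12 fell in ADISSP, 1 rose and 30 passed no test. The 12 that fell are 27.9% of the list, against 16.5% of all tested genes, and the 1 that rose is 2.33%, against 18.5%. The share that fell did not stand above that of all genes in every subset of libraries. Without Control 1, 3 of the 43 were lower, where 8.83% of all tested genes were, and without Control 2 again 3, where 9.66% were. Without ADISSP 1, 2 or 3, 5 were lower, where 9.17%, 10.2% and 9.74% were, and without Control 3, 14 were, where 23.1% were. With Control 3 as the only control, 1 was lower, where 7.12% of all tested genes were. The median log2 fold change (ADISSP minus Control) was -0.32 over the 43 genes and -0.01 over all tested genes, and 31 of the 43 values were negative. In 16 genes all 3 ADISSP libraries lay below all 3 Control libraries, which held for 23.7% of all tested genes. In 3 genes all ADISSP libraries lay above, which held for 26.1% of all tested genes. In the other 24 the groups overlapped. The 30 genes that passed no test had log2 fold changes from -0.69 to 0.80 and adjusted p from 0.0798 to 0.939, 19 of them negative and 11 positive. Scaled by library totals in place of TMM, the median of all tested genes shifted to -0.36. On that scale 21 of the 43 were lower and 1 higher, where 38.1% of all tested genes were lower and 10.1% higher. The 12 genes that fell kept a negative sign, and Cdkn1a a positive one, under every scaling tried.

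**Figure D2:**
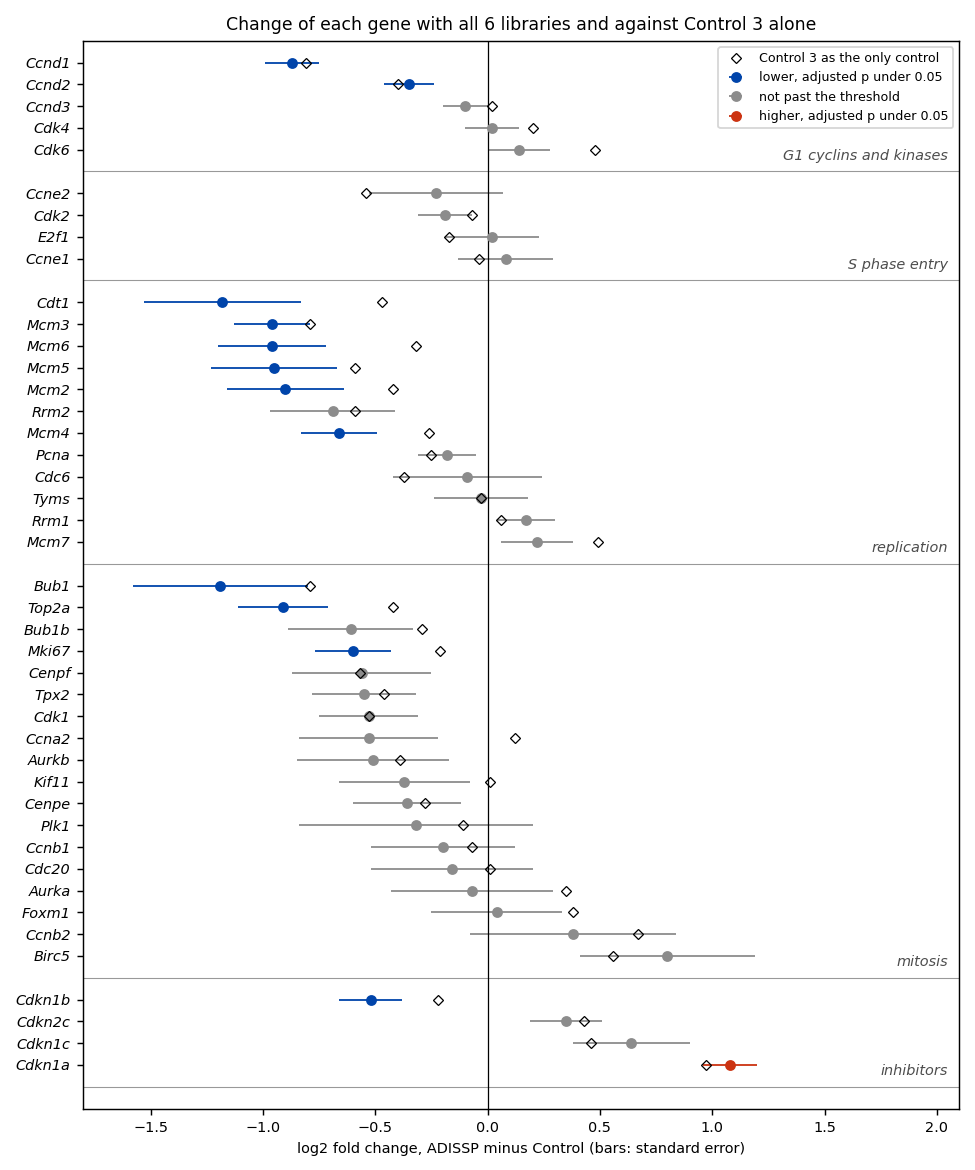
Log2 fold change (ADISSP minus Control) with its standard error for each of the 43 genes, by role, with the value against Control 3 as the only control as an open diamond. The 12 genes that fell lie between -1.19 and -0.35, Cdkn1a lies at 1.08, and most diamonds of replication and mitosis genes that fell lie nearer to 0 than the points.

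Levels per transcript length (TPM, the authors' deposited values, mean of 6 libraries) put a D cyclin and 2 inhibitors on top and mitosis genes at the bottom. Ccnd2 was highest at 136 TPM, followed by Cdkn2c at 126, Cdkn1a at 74.1, Ccnd3 at 39, Pcna at 32.3, Cdk4 at 31.6, Cdkn1b at 27.8 and Ccnd1 at 18.9 TPM. The top of this order differed by group: the Control means were 178 TPM for Ccnd2, 136 for Cdkn2c and 61.3 for Cdkn1a, and the ADISSP means were 93.6, 116 and 87 TPM. TPM carry no TMM factors, and on log2(TPM + 1) the median change of all tested genes was -0.51. TPM are therefore to be read within a group. In CPM the Control and ADISSP means were 396 and 311 for Ccnd2, 86.2 and 110 for Cdkn2c, and 51.7 and 109 for Cdkn1a. Pcna and Cdk4 are neighbours whose TPM do not differ beyond their spread. The mitosis genes, apart from Mki67 at 12.7 TPM, stood at 5.81 TPM (Top2a) or less. Ccnb1, Cenpf and Bub1 closed the order at 1.36, 1.35 and 0.848 TPM. Bub1 was thus read from 5 to 28 counts per library, and calls on such genes rest on few counts.

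**Figure D3:**
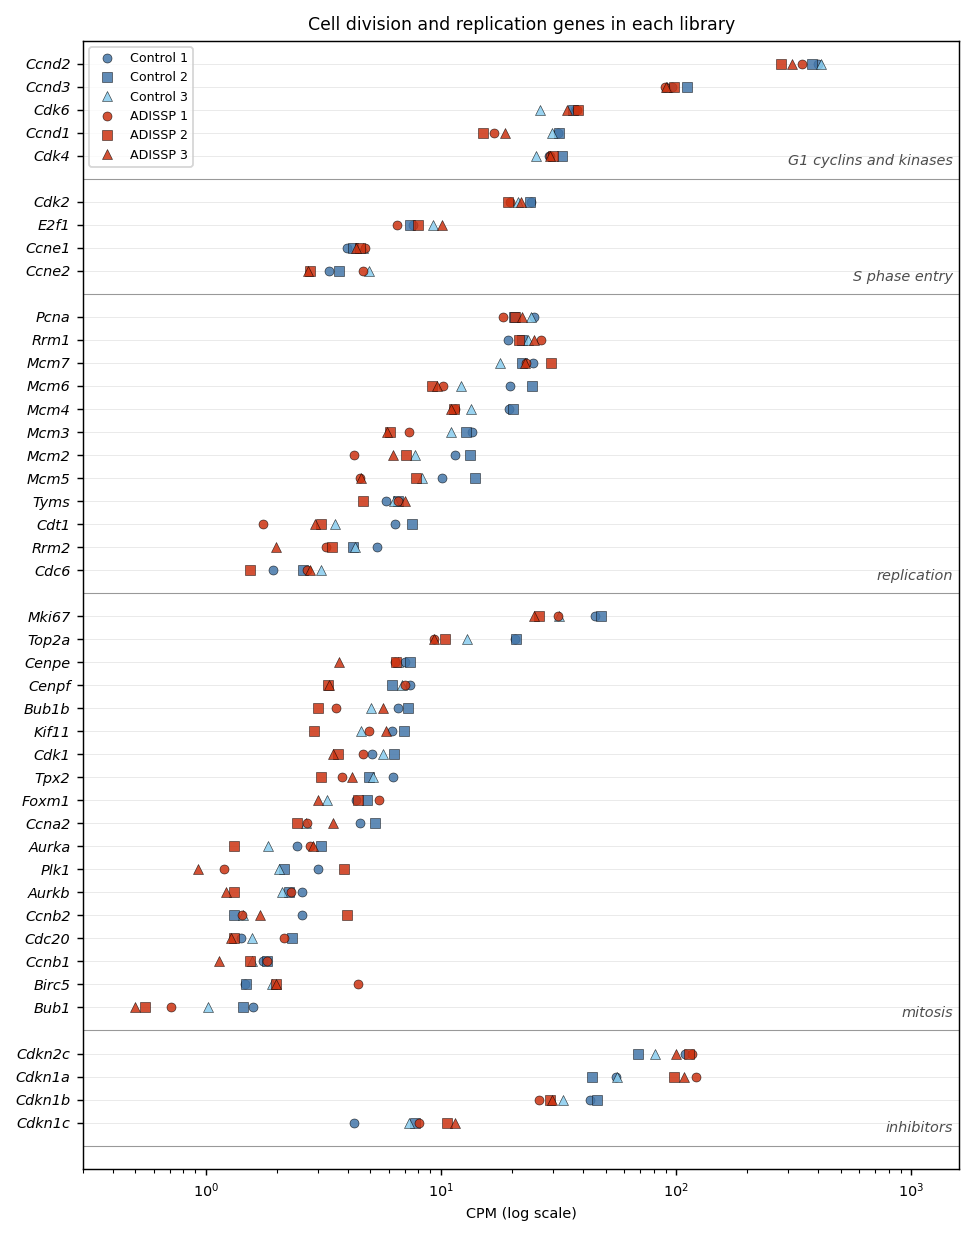
CPM of the 43 genes in each of the 6 libraries on a log axis, grouped by role. CPM are not per length, so a row is to be read across its libraries and not against other rows; in Ccnd1, Mcm3, Top2a and Cdkn1a the groups separate, and Control 3 is often the Control library nearest to ADISSP.

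Of the 12 replication genes 6 fell (50%, against 16.5% of all tested genes), all of them genes of the helicase or of its loading on DNA. Most of the 12 are of this kind. The helicase subunits Mcm2, Mcm3, Mcm4, Mcm5 and Mcm6 and the loading factor Cdt1 fell, each by 1.58-fold to 2.26-fold. The remaining subunit Mcm7 and the other loading factor on the list, Cdc6, did not. Cdt1 (chromosome 8, 123294754 to 123300293, GRCm39), which brings the helicase to origins, had 6.34, 7.52 and 3.55 CPM in Control 1, 2 and 3 and 1.74, 3.09 and 2.91 CPM in ADISSP 1, 2 and 3. The ADISSP libraries lay below all Control libraries, with Control 3 close to them, and the log2 fold change was -1.18 (SE 0.35, adjusted p = 0.0282). Mcm2 (chromosome 6, 88860456 to 88875762) had 11.5, 13.3 and 7.77 CPM in Control and 4.27, 7.06 and 6.25 CPM in ADISSP. The groups did not overlap, Control 3 was again the lowest Control library, and the log2 fold change was -0.90 (SE 0.26, adjusted p = 0.0257). Mcm3 (chromosome 1, 20873192 to 20890536) had 13.5, 12.8 and 11 CPM in Control and 7.28, 6.07 and 5.89 CPM in ADISSP. It was the most even of these genes, with all Control libraries well above all ADISSP libraries and a log2 fold change of -0.96 (SE 0.17, adjusted p = 0.00301). Mcm4 (chromosome 16, 15441761 to 15455264) had 19.5, 20.2 and 13.4 CPM in Control and 11.4, 11.3 and 11 CPM in ADISSP. The ADISSP libraries were nearly equal and lay below Control 3, with a log2 fold change of -0.66 (SE 0.17, adjusted p = 0.0182).

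Mcm5 (chromosome 8, 75836197 to 75855067) had 10.1, 13.9 and 8.32 CPM in Control and 4.51, 7.83 and 4.54 CPM in ADISSP. ADISSP 2 came near Control 3 without reaching it, and the log2 fold change was -0.95 (SE 0.28, adjusted p = 0.0276). Mcm6 (chromosome 1, 128259327 to 128287401) had 19.7, 24.4 and 12.1 CPM in Control and 10.2, 9.16 and 9.59 CPM in ADISSP. The groups did not overlap, and the log2 fold change was -0.96 (SE 0.24, adjusted p = 0.0157). Mcm7 (chromosome 5, 138162845 to 138170684) had 24.5, 22 and 17.7 CPM in Control and 22.9, 29.2 and 22.8 CPM in ADISSP. Its groups overlapped, with a log2 fold change of 0.22 (SE 0.16, adjusted p = 0.318), and on library totals the value was -0.14. Mcm7 overlaps Cops6 and Ap4m1 on the opposite strand by 64 and 421 bases. Cops6 and Ap4m1 had 3852 and 2862 counts in total, against 1969 for Mcm7, and log2 fold changes of 0.61 and 0.22. Whether reads were counted by strand is not given in the sources used here. A part of their reads in the Mcm7 value was not tested. Apart from Mcm3, these genes lost their calls in most fits with 1 library left out. With any library but Control 3 left out, 3823 to 4394 genes were called in all, against 6058 with all libraries. With any 1 library left out Mcm3 was called, at an adjusted p of 0.018 or less. Cdt1, Mcm4 and Mcm6 were called without Control 3 and lost the call without any other library, at adjusted p of up to 0.108, 0.073 and 0.0647. Mcm2 and Mcm5 were called without Control 3 or without ADISSP 2 and lost the call otherwise, at up to 0.1 and 0.11. Against Control 3 alone, with the spread taken from the ADISSP libraries, the log2 fold changes were -0.47 for Cdt1, -0.42 for Mcm2, -0.79 for Mcm3, -0.26 for Mcm4, -0.59 for Mcm5, -0.32 for Mcm6 and 0.49 for Mcm7. None of these 7 passed, the smallest adjusted p being 0.0564 for Mcm3.

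**Figure D4:**
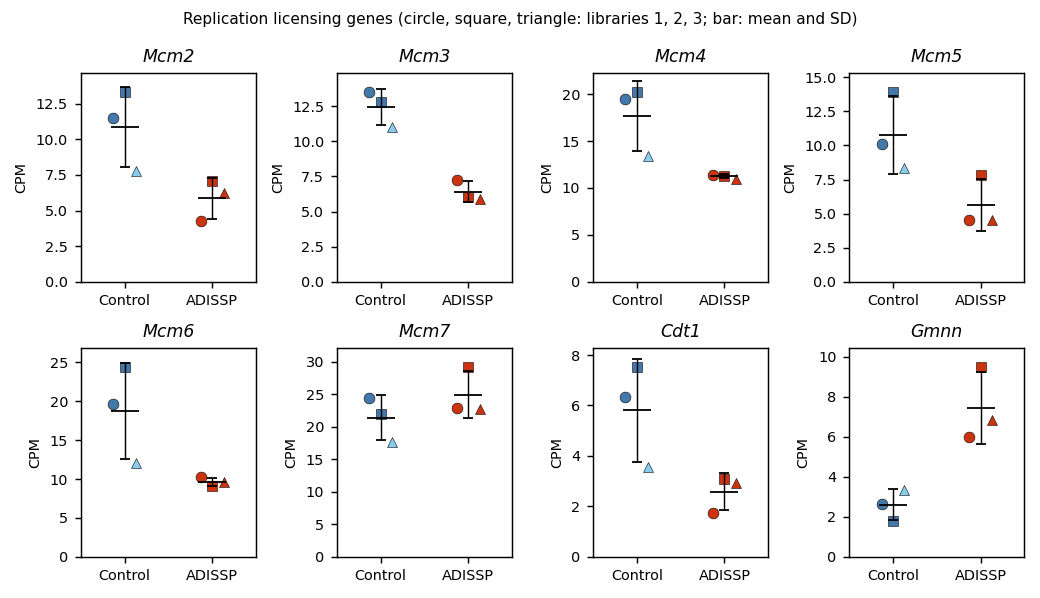
CPM of Mcm2 to Mcm7, Cdt1 and Gmnn in each library, with the mean and SD of the 3 libraries as bars; each panel has its own axis from 0. Cdt1 and Mcm2 to Mcm6 lie lower in ADISSP with Control 3 next to it, Mcm7 overlaps between groups, and Gmnn lies higher in all 3 ADISSP libraries.

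The other 6 replication genes passed no test. Pcna, the sliding clamp of the DNA polymerases, had 24.8, 20.4 and 24.1 CPM in Control and 18.3, 20.7 and 22.1 CPM in ADISSP. Its groups overlapped (log2 fold change -0.18, SE 0.13, adjusted p = 0.314). Rrm2, the S phase subunit of the enzyme that makes deoxynucleotides, had 5.32, 4.23 and 4.3 CPM in Control and 3.24, 3.42 and 1.99 CPM in ADISSP. All ADISSP libraries lay below all Control libraries, yet the log2 fold change of -0.69 (SE 0.28) did not pass (adjusted p = 0.0846). Cdc6, which loads the helicase together with Cdt1, the large reductase subunit Rrm1 and the thymidylate synthase Tyms had log2 fold changes of -0.09, 0.17 and -0.03, with overlapping groups. Summed over the 12 replication genes, the level was 162, 170 and 135 CPM in Control and 120, 126 and 122 CPM in ADISSP. Control 3 lay between the other Control libraries and ADISSP.

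Among the 18 mitosis genes 3 fell, namely Mki67, Top2a and Bub1, and none rose. These are 16.7% of the class, close to the 16.5% of all tested genes that fell. The log2 fold change was negative in 15 of the 18, with a median of -0.44. Mki67 (chromosome 7, 135291513 to 135318090), the gene of the Ki-67 protein used to stain cycling cells, had 45, 48 and 31.6 CPM in Control and 31.3, 26.1 and 24.7 CPM in ADISSP. ADISSP 1 and Control 3 were almost equal, and the log2 fold change was -0.60 (SE 0.17, adjusted p = 0.0238). Top2a (chromosome 11, 98883769 to 98915015), the topoisomerase that untangles sister chromatids, had 20.6, 20.9 and 12.9 CPM in Control and 9.34, 10.4 and 9.3 CPM in ADISSP. The groups were apart, and the log2 fold change was -0.91 (SE 0.20, adjusted p = 0.0081). Bub1 (chromosome 2, 127643036 to 127673785), a kinase of the spindle checkpoint, had 1.58, 1.43 and 1.02 CPM in Control and 0.712, 0.552 and 0.497 CPM in ADISSP. Its log2 fold change was -1.19 (SE 0.39, adjusted p = 0.0409). DESeq2's Wald test gave it an adjusted p of 0.134. Top2a was called whichever library was left out. Bub1 was called without Control 3 and in no other such fit, at up to 0.161. Mki67 lost the call without Control 1, Control 2, ADISSP 2 or ADISSP 3, at up to 0.0902. Against Control 3 alone Mki67, Top2a and Bub1 had log2 fold changes of -0.21, -0.42 and -0.79, with adjusted p of 0.471, 0.251 and 0.568.

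The kinase that starts mitosis and its cyclins passed no test. Cdk1 had 5.09, 6.31 and 5.66 CPM in Control and 4.67, 3.64 and 3.48 CPM in ADISSP. Its groups did not overlap, but the log2 fold change of -0.53 (SE 0.22) gave an adjusted p of 0.0941. With Control 3 as the only control the value was also -0.53. Ccnb1, a B cyclin that activates Cdk1, had 1.75, 1.81 and 1.57 CPM in Control and 1.82, 1.54 and 1.14 CPM in ADISSP. These overlapped, with a log2 fold change of -0.20 (SE 0.32, adjusted p = 0.666). In some mitosis genes a single ADISSP library stood apart. Ccnb2 and Plk1, a B cyclin and a mitotic kinase, reached 3.97 and 3.86 CPM in ADISSP 2, against 1.42 and 1.7 CPM and 1.19 and 0.923 CPM in ADISSP 1 and 3. Birc5 (survivin, of the chromosomal passenger complex) reached 4.43 CPM in ADISSP 1, against 1.99 CPM in ADISSP 2 and in ADISSP 3. Their log2 fold changes were 0.38, -0.32 and 0.80. Without ADISSP 2 those of Ccnb2 and Plk1 were -0.16 and -1.17, and without ADISSP 1 that of Birc5 was 0.31, none of them called. Cenpf had 7.04 CPM in ADISSP 1 against 3.31 and 3.34 CPM in ADISSP 2 and 3, Aurka 1.32 CPM in ADISSP 2 against 2.77 and 2.84 CPM in ADISSP 1 and 3, and Cenpe 3.69 CPM in ADISSP 3 against 6.33 and 6.4 CPM in ADISSP 1 and 2. The remaining 10 mitosis genes had log2 fold changes from -0.61 (Bub1b, a spindle checkpoint kinase) to 0.04 (Foxm1, a transcription factor of mitosis genes). Among them are the motor proteins Cenpe and Kif11 (-0.36 and -0.37), the Aurora kinases Aurka and Aurkb (-0.07 and -0.51), cyclin Ccna2 (-0.53), the kinetochore protein Cenpf (-0.56), the spindle factor Tpx2 (-0.55) and the activator of the anaphase ligase Cdc20 (-0.16). Some of these passed when a library was left out: Ccna2 (-0.75, adjusted p = 0.0355) and Bub1b (-0.73, adjusted p = 0.0437) without Control 3, Bub1b also without ADISSP 3 (-0.92, adjusted p = 0.0452), and Cenpf without ADISSP 1 (-1.01, adjusted p = 0.0193). Ccna2 overlaps Exosc9 on the opposite strand by 863 bases. The sum over the 18 mitosis genes was 130, 134 and 97.7 CPM in Control and 95.8, 81.5 and 78.2 CPM in ADISSP. Control 3 stood just above ADISSP 1.

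Of the 5 G1 genes, 2 D cyclins fell (40%, against 16.5% of all tested genes). The third D cyclin and the kinases that D cyclins bind did not pass. Ccnd1 (chromosome 7, 144483668 to 144493662) had 31.3, 31.6 and 29.6 CPM in Control and 16.7, 15 and 18.7 CPM in ADISSP. All Control libraries, Control 3 included, were alike and far above ADISSP, and Ccnd1 was 1.83-fold lower (log2 fold change -0.87, SE 0.12, adjusted p = 0.000906). It was called whichever library was left out. With Control 3 as the only control it was the 1 gene of the 43 that was lower past the threshold, where 7.12% of all 18326 genes tested were lower (log2 fold change -0.81, adjusted p = 0.00831). Ccnd1 overlaps LTO1 on the opposite strand by 1771 bases, and LTO1 had a log2 fold change of 0.21. Ccnd2 (chromosome 6, 127102125 to 127129156) had 401, 376 and 411 CPM in Control and 343, 279 and 311 CPM in ADISSP. The groups did not overlap, and the difference was 1.27-fold (log2 fold change -0.35, SE 0.11, adjusted p = 0.039). It was the 1 gene among the 12 that fell in which Control 3 was not the lowest Control library. Its call was lost with any library but Control 3 left out, at adjusted p of 0.0538 to 0.173, and against Control 3 alone it was -0.40 (adjusted p = 0.0583). Ccnd3, Cdk4 and Cdk6 had log2 fold changes of -0.10, 0.02 and 0.14 with overlapping groups. Cdk6 had 37.2 and 36.5 CPM in Control 1 and 2, 26.3 CPM in Control 3 and 34.4 to 38.3 CPM in ADISSP.

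None of the 4 genes of S phase entry passed the test. E2f1, which activates the replication genes, had 7.58, 7.36 and 9.21 CPM in Control and 6.49, 7.94 and 10.1 CPM in ADISSP. The groups overlapped fully, with a log2 fold change of 0.02 (SE 0.21, adjusted p = 0.939). Cdk2, the kinase that fires origins, and its E cyclins Ccne1 and Ccne2 had log2 fold changes of -0.19, 0.08 and -0.23. Their sum with E2f1 was 39.1, 39 and 40 CPM in Control and 35.6, 34.4 and 38.9 CPM in ADISSP. Ccne2 overlaps Ints8 on the opposite strand by 5622 bases.

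Of the 4 inhibitors 1 rose (Cdkn1a), 1 fell (Cdkn1b) and 2 passed no test. In so small a class 1 gene makes up 25%, against 18.5% of all tested genes that rose and 16.5% that fell. Cdkn1a (p21; chromosome 17, 29309950 to 29319701) had 55.4, 43.9 and 55.7 CPM in Control and 121, 98.1 and 108 CPM in ADISSP. Every ADISSP library lay far above every Control library, and the gene was 2.11-fold higher (log2 fold change 1.08, SE 0.12, adjusted p = 0.000323). It was called under every alternative tried, and against Control 3 alone its log2 fold change was 0.97 (adjusted p = 0.000446). Cdkn1b (p27; chromosome 6, 134897364 to 134902476) had 43.1, 45.8 and 32.9 CPM in Control and 26.1, 29.1 and 29.7 CPM in ADISSP. It was 1.44-fold lower with no overlap (log2 fold change -0.52, SE 0.14, adjusted p = 0.019). It was -0.22 against Control 3 alone (adjusted p = 0.404), and the call was lost without Control 1, Control 2, ADISSP 1 or ADISSP 2, at up to 0.0747. Cdkn1c (p57) had 4.24, 7.74 and 7.3 CPM in Control and 8.07, 10.6 and 11.5 CPM in ADISSP. The groups did not overlap, though ADISSP 1 and Control 2 were close, and the log2 fold change was 0.64 (SE 0.26, adjusted p = 0.0798). Without Control 3 it was 0.74 (adjusted p = 0.0376). Cdkn2c (p18, an inhibitor of Cdk4 and Cdk6) had 109, 68.6 and 81.3 CPM in Control and 117, 113 and 99.3 CPM in ADISSP. Control 1 reached into the ADISSP range, and the log2 fold change was 0.35 (SE 0.16, adjusted p = 0.132). Without Control 1 it was 0.55 (adjusted p = 0.0185). Against Control 3 alone, 3 of the 43 genes were higher past the threshold, where 10.3% of all genes tested were higher: Cdkn1a, Cdkn2c (0.43, adjusted p = 0.0379) and Cdk6 (0.48, adjusted p = 0.0477).

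Control 3 was the lowest Control library in 25 of the 43 genes (58.1%) and in 40.4% of all tested genes. Control 3 was the lowest Control library and yet above all ADISSP libraries in 12 of the 43 genes (27.9%) and in 15% of all tested genes. In the 12 genes that fell, whose ADISSP libraries all lay below all Control libraries, it was the lowest Control library in 11. How often this held among all 2861 genes that fell was not counted, so it cannot be called particular to these genes. Beside the summed mitosis genes, which were 1.35-fold higher in the mean of Control 1 and 2 than in Control 3, the B cell markers were 4.74-fold and the T cell markers 3.46-fold higher. All 11 B cell and all 10 T cell markers fell in ADISSP, with no such marker at 0 counts in any library. Of the germinal centre B cell markers, which belong to a fast-dividing lymphocyte stage, 5 were tested, of which 2 fell, Gcsam among them (log2 fold change -2.87, adjusted p = 0.0102), and 2 rose. Those that rose were Bcl6, which other cells also express (1.27, adjusted p = 0.000542), and Neil1 (0.71, adjusted p = 0.00809). The 8 germinal centre markers summed to 106, 81.2 and 94.3 CPM in Control and 216, 188 and 172 CPM in ADISSP. Bcl6 alone had 84.2, 57.2 and 74.7 CPM in Control and 199, 171 and 153 CPM in ADISSP. The summed markers of macrophages and of fat cell progenitors separated the groups, and these sums, which abundant genes carry, were not lowered in Control 3 as the lymphocyte sums were. Single markers were: Cd55, of progenitors, had 133, 157 and 78.8 CPM in Control 1, 2 and 3, and Lyve1, of macrophages, had 25.5, 27.4 and 15.4 CPM. Icam1 and Dpp4, also of progenitors, were at 17.8 and 28.6 CPM in Control 3 and higher in Control 1 and 2. The 10 macrophage markers summed to 734, 668 and 653 CPM in Control and 307, 380 and 297 CPM in ADISSP, and 9 of them fell. The 9 progenitor markers summed to 1760, 1770 and 1880 CPM in Control and 1220, 1180 and 1090 CPM in ADISSP, and 4 of them fell. The 7 endothelial markers summed to 957, 923 and 895 CPM in Control and 630, 714 and 779 CPM in ADISSP, and 3 of them fell. The 7 fat cell markers summed to 7930, 7420 and 10300 CPM in Control and 10500, 9740 and 11000 CPM in ADISSP, and 2 of them rose. All 7 markers of brown or beige fat cells rose, from 138 to 234 CPM summed in Control to 4200 to 4960 CPM in ADISSP.  The part of these cell types in the results was not tested.

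**Figure D5:**
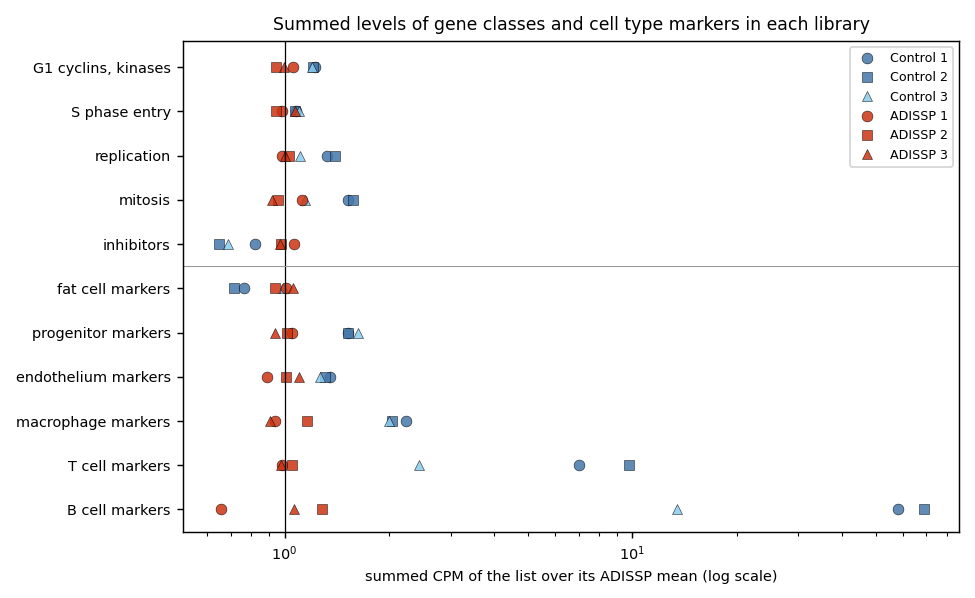
Summed CPM per library, divided by the ADISSP mean of the same list (log axis), of the gene classes and of marker lists of cell types. The mitosis genes are at 97.7 CPM in Control 3 and at 78.2 to 95.8 CPM in ADISSP; B and T cell markers are low in Control 3 and lower in ADISSP, while the macrophage and progenitor sums in Control 3 are near those of Control 1 and 2.

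Lists of further genes of the same processes gave the wider setting. Their counts are from all 6 libraries and were not taken with single libraries left out. Of 42 other replication genes 41 were tested. Among these 10 fell (24.4%, against 16.5% of all tested genes) and 2 rose (4.88%, against 18.5%), with a median log2 fold change of -0.30. The smallest p among them belonged to Tk1, thymidine kinase, at -1.52 (adjusted p = 0.00298), to Dbf4, the partner of the kinase that activates the helicase, at -1.14 (adjusted p = 0.00402), and to Orc4, of the origin recognition complex, at -0.86 (adjusted p = 0.0041). Tested against Control 3 alone, Tk1 and Orc4 passed (adjusted p = 0.0394 and 0.0464) and Dbf4 did not (-0.85, adjusted p = 0.0998). Against the direction of the rest, Gmnn and Pold2 rose. Gmnn encodes geminin, the protein that binds Cdt1 and blocks reloading of the helicase, and had 2.66, 1.81 and 3.34 CPM in Control and 6.01, 9.49 and 6.82 CPM in ADISSP. Its groups were far apart (log2 fold change 1.51, SE 0.29, adjusted p = 0.00478), and against Control 3 alone it was 1.13 (adjusted p = 0.0426). Pold2, a subunit of DNA polymerase delta, was at 0.73 (adjusted p = 0.00781), and on library totals at 0.37 (adjusted p = 0.103).

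Of 58 other mitosis genes 55 were tested. Among these 13 fell (23.6%, against 16.5% of all tested genes) and 1 rose (1.82%, against 18.5%), with a median of -0.54. The condensin subunits Smc2 and Smc4 fell, with log2 fold changes of -1.01 (adjusted p = 0.00163) and -1.51 (adjusted p = 0.00597), and did so against Control 3 alone as well (-0.77, adjusted p = 0.0315, and -0.81, adjusted p = 0.00284). The 1 that rose was Pttg1, securin, which inhibits the protease separase until anaphase. It had 11.4, 12.7 and 12.9 CPM in Control and 22.6, 23.6 and 21.4 CPM in ADISSP. The groups were tight and apart (log2 fold change 0.86, SE 0.12, adjusted p = 0.000964), and Pttg1 was called under every alternative tried. Of 19 genes that control cell cycle transcription 3 fell (15.8%, against 16.5% of all tested genes) and 1 rose (5.26%, against 18.5%), with a median of 0.09. The retinoblastoma relative Rbl1 and Rb1 itself fell (-0.83, adjusted p = 0.00504, and -0.42, adjusted p = 0.0057), as did Lin54, the DREAM subunit that binds CHR elements (-0.46, adjusted p = 0.0473), which was named after its value was seen. In the comparison with Control 3 alone Rb1 passed (-0.36, adjusted p = 0.0441), and Rbl1 and Lin54 did not (-0.59 and -0.26, adjusted p = 0.0852 and 0.501). Lin54 lost its call without any library but Control 3, at adjusted p of up to 0.155. Tfdp2, a partner of E2F proteins, rose at 0.32 (adjusted p = 0.0382), but on library totals its value was -0.03, and its call was lost without any library but Control 3, at up to 0.13.

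Of 12 other inhibitors and checkpoint genes 11 were tested. Among these 4 fell (36.4%, against 16.5% of all tested genes) and none rose (against 18.5%). The median was -0.02, with 6 negative and 5 positive values. Those that fell were the DNA damage kinases Atr (-0.82, adjusted p = 0.000903), Atm (-0.69, adjusted p = 0.00616) and Chek2 (-0.82, adjusted p = 0.0135) and the p53 gene Trp53 (-0.36, adjusted p = 0.0304), the last named after its value was seen. Atr and Chek2 also passed against Control 3 alone (adjusted p = 0.0064 and 0.0305), and Atm and Trp53 did not (-0.35 and -0.21, adjusted p = 0.108 and 0.426). Chek2 lost the call without ADISSP 1 (adjusted p = 0.053), and Trp53 lost it without any library but Control 3, at up to 0.112. Since Cdkn1a is a classic target of p53, 15 other p53 targets were read beside it: 3 rose (20%, against 18.5% of all tested genes), 4 fell (26.7%, against 16.5%) and 8 passed no test, with a median of 0.00. Plk2, a kinase induced by p53, fell by 0.74 on the log2 scale (adjusted p = 0.00353), Trp53inp1 by 0.84 (adjusted p = 0.0111) and Sesn1 by 0.42 (adjusted p = 0.0191). Btg2, an inhibitor of proliferation named after its value was seen, fell by 0.51 (adjusted p = 0.0406) with overlapping groups. Bbc3, the death gene PUMA, Sesn2 and Gdf15 rose by log2 values of 0.51 (adjusted p = 0.0295), 0.69 (adjusted p = 0.0304) and 1.78 (adjusted p = 0.0198). On library totals Bbc3 was at 0.16 (adjusted p = 0.442) and Sesn2 at 0.35 (adjusted p = 0.113), and on log2(TPM + 1) they were at -0.06 and 0.14, none of them called. Plk2 also passed against Control 3 alone (-0.80, adjusted p = 0.00398). The other 6 did not: Trp53inp1, Sesn1, Btg2, Bbc3, Sesn2 and Gdf15 had adjusted p of 0.144, 0.345, 0.436, 0.162, 0.171 and 0.158. Gdf15 was read from 5 to 20 counts per library. Plk2 was called whichever library was left out. Without ADISSP 1, Trp53inp1 had an adjusted p of 0.0515. Sesn1 lost its call without any library but Control 3, at up to 0.0764, Btg2 without any library but Control 3 or ADISSP 3, at up to 0.131, and Bbc3 without any library but Control 3, at up to 0.114. Sesn2 kept it without Control 1 or Control 3, and otherwise had up to 0.103; Gdf15 lost it without Control 1, Control 2 or ADISSP 2, at up to 0.0783.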

How the data were processed

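RNA of inguinal fat was sequenced by the authors after ribosomal RNA depletion, in 3 ADISSP and 3 Control libraries, all of batch 1 per the labels. Per the submitters' processing notes, reads were aligned with STAR and counted with featureCounts on mm39 (GRCm39); for versions, annotation release and strand setting: not given in the sources used here. Values in the deposited count table are whole numbers, with no normalization. The deposited TPM values cover 23524 genes and entered levels and alternatives; FPKM values were not used here. Positions and symbols are those of the deposited tables.

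Counts were tested in R 4.3.3 with edgeR 4.0.16: filterByExpr, TMM factors (1.05 to 1.18 in Control, 0.875 to 0.899 in ADISSP), robust quasi-likelihood test, ADISSP minus Control without covariates, Benjamini-Hochberg adjustment over 17320 genes, threshold 0.05. The standard error is the size of the log2 fold change divided by the square root of F. CPM use TMM-scaled totals. The test was tried on simulated counts. Alternatives used DESeq2 1.42.0 and limma 3.58.1, other scalings, no filter, each library left out, Control 3 as the only control, and the replicate number as a block. Same-numbered libraries were checked for pairing and are not taken as pairs.

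The genes, their classes, the marker lists and the lists of other genes were chosen with earlier results of these data known. All 43 genes are accounted for. Of each other list the 3 genes with the smallest p and every call against the list's majority are named. Pseudogenes named after the 43 genes held at most 20 counts each. Promoters are RefSeq's for GRCm38.p6 and were matched by symbol; Cdkn1c, Ccne2, Mcm4, Foxm1, Ccna2, Ccnd2, Aurkb, Ccnd1 and Tpx2 had no entry used here.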

Additional observations from a re-analysis of the deposited data

How the results depend on the processing

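With library totals 21 of the 43 genes were lower, where 38.1% of all tested genes were. On log2(TPM + 1) and log2(TPM + 0.1) 27 and 26 were lower, where 55% and 54.6% of all tested genes were. In both directions 10804 and 10736 genes were called on these TPM scales, against 6058 in the main test. The median of all genes lay at -0.36 on library totals and at -0.51 and -0.58 on the TPM scales. Without the filter, with the replicate block and with Control 3 as the only control, 2, 2 and 3 of the 43 were higher; Control 3 alone left 1 lower and 3190 genes called. DESeq2's Wald test gave 11 lower, and so did the replicate block, which lost Bub1 and added Cdkn1c as higher. Of all genes tested in these fits, 9.5% and 15% were lower. Same-numbered libraries had correlations of 0.03, 0.08 and 0.05 in their deviations. Leaving out each library gave 3823 to 8517 genes called, 3 to 14 of the 43 lower and 1 to 2 higher; the 14 came without Control 3. CHR matches fell from 11 to 7 genes when only bases before the start were read.

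Signs turned in genes that passed no test and in Tfdp2 and Bbc3. On library totals, log2(TPM + 1) and log2(TPM + 0.1), Cdk4 was at -0.34, -0.54 and -0.55, Cdk6 at -0.22, -0.38 and -0.42, Ccne1 at -0.27, -0.42 and -0.49, E2f1 at -0.32, -0.51 and -0.57, Mcm7 at -0.14, -0.34 and -0.35, Rrm1 at -0.18, -0.36 and -0.40, Foxm1 at -0.33, -0.40 and -0.54, Cdkn2c at -0.01, -0.21 and -0.21, and Tfdp2 at -0.03, -0.24 and -0.26. The median of all tested genes moved on these scales too, from -0.01 to -0.36, -0.51 and -0.58. On the TPM scales Ccnb2 was at -0.19 and -0.24 and Bbc3 at -0.06 and -0.06. Against Control 3 alone Ccnd3 was at 0.02, Ccne1 at -0.04, E2f1 at -0.17, Ccna2 at 0.12, Aurka at 0.35, Cdc20 at 0.01 and Kif11 at 0.01. With a library left out, the values ran from -0.06 to 0.11 for Cdk4, 0.00 to 0.23 for Cdk6, -0.15 to 0.18 for E2f1, -0.26 to 0.13 for Cdc6, -0.13 to 0.14 for Tyms, -0.16 to 0.75 for Ccnb2, -0.17 to 0.26 for Foxm1, -0.23 to 0.20 for Aurka, -1.17 to 0.05 for Plk1 and -0.43 to 0.09 for Cdc20. The cause was not tested. Of the other values of single genes, 704 kept direction and side of the threshold, 122 lost the call and 44 gained it. Genes under about 2 CPM, such as Bub1, Ccnb1 and Cdc20, rest on few counts.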

Other observations

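Histone genes of the replication-dependent clusters were looked at after the other values were seen. Most of their messages typically lack a poly(A) tail, and ribosomal RNA depletion keeps such messages. The genes were taken by name, and whether their messages here came from dividing cells was not tested. By name 66 such genes (H1f1 to H1f5 and the H2ac, H2bc, H3c and H4c genes) are listed and 50 were tested. Of these 5 rose, 1 fell and 44 passed no test, against 18.5% and 16.5% of all tested genes that rose and fell. Their median log2 fold change was -0.21. Summed over the 66, they had 362, 370 and 347 CPM in Control and 426, 455 and 423 CPM in ADISSP, so on this TMM scale every ADISSP library lay above every Control library. As CPM of the library totals without TMM factors, the Control sums of 421, 438 and 365 overlapped the ADISSP sums of 376, 399 and 380. A few genes weighed heavily in the TMM-scaled sums, among them H1f2, H4c8 and H2bc4. H4c8 had 13.2, 17.2 and 17.3 CPM in Control and 32.3, 42.6 and 36 CPM in ADISSP. H2bc4, which passed no test, had 60.2, 51.9 and 73.7 CPM in Control and 82.1, 78.3 and 71.3 CPM in ADISSP. Of the 50 tested genes 34 had a negative log2 fold change, so the sums do not stand for most of these genes. H1f2, a linker histone, had 65.5, 65.2 and 71.5 CPM in Control and 95.8, 112 and 101 CPM in ADISSP (log2 fold change 0.61, SE 0.10, adjusted p = 0.00169 by edgeR). H4c8 (1.21, adjusted p = 0.000547), H2bc21 (1.25, adjusted p = 0.00337), H4c3 (0.65, adjusted p = 0.00908) and H4c9 (1.20, adjusted p = 0.0389) also rose. H1f1 fell (-1.04, adjusted p = 0.0214). With library totals 3 of the 50 were higher and 9 lower, where 10.1% of all tested genes were higher and 38.1% lower. On log2(TPM + 1) 2 were higher and 24 lower, where 7.41% and 55% of all tested genes were. Without Control 3, 7 of 52 tested were higher and 7 lower, where 23.6% and 23.1% of all tested genes were. Histone genes are near-identical copies that can share reads, so single values are uncertain.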
